A study of Mus musculus with 2 samples.

Results

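The cyclin-dependent kinase (CDK) inhibitors are the 7 genes Cdkn1a, Cdkn1b, Cdkn1c, Cdkn2a, Cdkn2b, Cdkn2c and Cdkn2d, and they were taken by name from 21368 genes that the array's RefSeq accessions name. All 7 were on the array, read by 10 probes. Total RNA of mouse heart was hybridised to 1-colour Agilent arrays, 1 array for each group. The first group is a heart of the B6.Cg-Tg strain with the transgene (CAG-WRN*K577M), line 5025Wcl/Mmmh, on a C57BL6 background, called WRN-K577M here. It carries a form of the WRN helicase with a substitution in the helicase domain, driven by the CAG promoter, which is active in most cell types and not in cardiomyocytes alone. The other group is a control heart of C57BL6 background. The comparison asks which signalling goes with remodelling of the heart in this line. The labels give neither age, sex nor the meaning of the letters ND in both titles, and do not say if RNA of several hearts was pooled. A single array for each genotype allows no test between them, and no difference below has a replicate check.

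CDK inhibitors hold cells out of division. The Cip/Kip proteins p21, p27 and p57, products of Cdkn1a, Cdkn1b and Cdkn1c, bind complexes of cyclins with CDKs, mainly those of cyclins E and A with CDK2. The INK4 proteins p16, p15, p18 and p19, products of Cdkn2a, Cdkn2b, Cdkn2c and Cdkn2d, bind CDK4 and CDK6 alone and keep D-type cyclins from activating them. Either way the pocket proteins of the retinoblastoma family stay unphosphorylated and E2F factors stay off. Most cardiomyocytes of the adult heart have left the cell cycle, and p21 and p16 are widely used as markers of cell senescence, a state that loss of WRN brings on early in cultured human cells.

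A level below is the log2 processed signal of a probe minus the 75th percentile of its array, 210 in the WRN-K577M and 256 in the control array. Ratios are differences of these levels, WRN-K577M minus control, in log2. A gene counts as measured where a probe was well above background, by the scanner software's own flag, on both arrays, which held for all 7 inhibitor genes and for 14003 genes in all.

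The share of probes well above background was 52.9% for the WRN-K577M and 55.2% for the control array. The hearts differed in cell type markers. All 6 ventricular cardiomyocyte markers were bright, with levels of 8.52 to 10.28 in the WRN-K577M and 8.37 to 10.03 in the control heart, and ratios of 0.13 to 0.25. These small ratios depend on the scaling. With quantile normalization 2 of the 6 lay above 0 and 3 below, and with cyclic loess normalization 3 and 3. All 4 atrial markers were at least 2-fold lower, with a summed level of 7.28 in the WRN-K577M and 9.33 in the control heart. Of 5 lung epithelial markers, 4 were in WRN-K577M not well above background but were so in the control heart, and the fifth, Scgb1a1, had levels of -2.02 in the WRN-K577M and 5.76 in the control heart. All 3 erythroid markers were at least 2-fold lower (summed levels 7.58 in the WRN-K577M and 9.68 in the control heart). Ratios were below 0 for all 5 leukocyte markers (3.95 in the WRN-K577M and 4.69 in the control heart) and all 5 fibroblast markers (7.66 and 7.89 in the same order). Of these, 2 leukocyte and 3 fibroblast markers were at least 2-fold lower, with list medians of -0.72 and -1.51. The bright marker Dcn, with a ratio of -0.059, carries most of the fibroblast sum, and Col3a1 had -2.29. Ratios were also below 0 for 3 of 4 smooth muscle markers (6.09 and 5.91) and 3 of 5 endothelial markers (4.69 and 4.77). The smooth muscle sum is carried by Acta2, the 1 marker above 0 (0.85), while Cnn1 was lowest with -1.26. Of 3 measured adipocyte markers, Adipoq was 9.89-fold and Cidec 8.95-fold lower, while Fabp4 had a ratio of 0.53 and carries the sum (7.60 and 7.11). Plin1 was well above background in the control alone, at least 9.06-fold lower in WRN-K577M. The part of these differences in the ratios of the inhibitor genes was not tested. Probes for mouse Wrn do not check the transgene, since no source used here says whether they read its message.

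None of the 7 inhibitor genes differed by 2-fold, where 5.39% of all measured genes did, 1.94% upward and 3.46% downward. Cdkn1b alone differed by 1.5-fold, upward, where 15.9% of all measured genes did, 6.76% upward and 9.16% downward. The log2 ratios ran from -0.58 to 0.75 with a median of -0.27, and 2 of 7 lay above 0. Over all measured genes the median was 0.020, 52.4% lay above 0, and 84.1% lay within 1.5-fold. Levels of different probes are not set against each other, since each probe has its own binding strength.

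**Figure D1:**
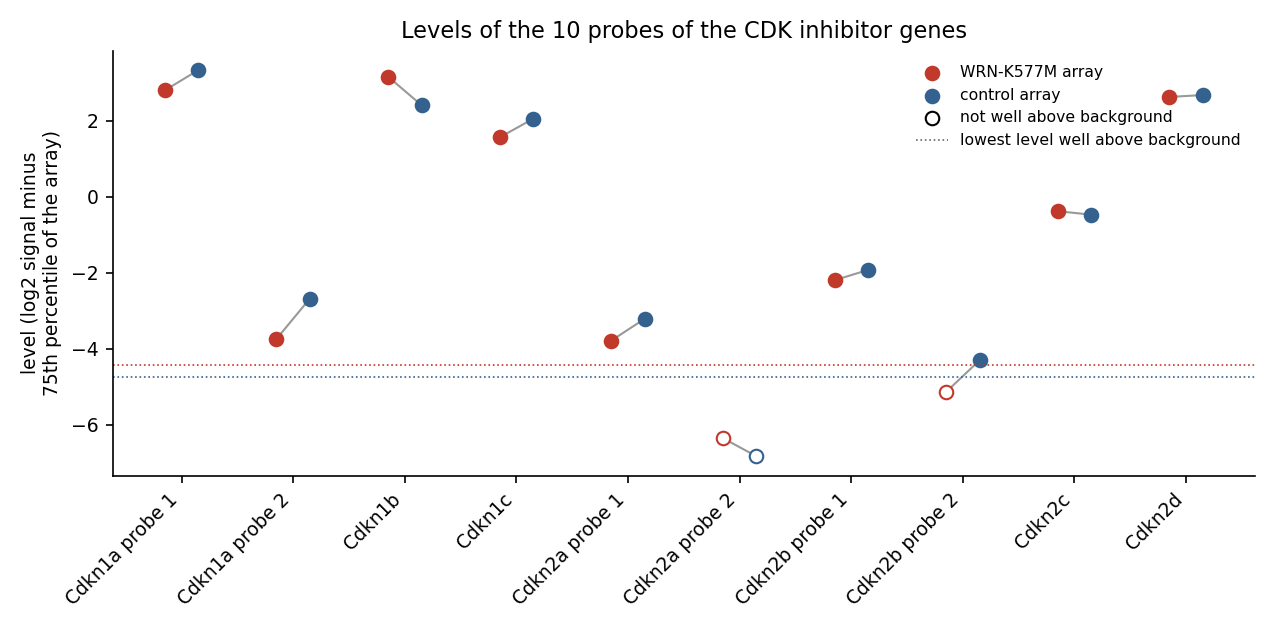
Levels of the 10 inhibitor probes, in log2 signal minus the 75th percentile of the array, with the WRN-K577M array left of the control array for each probe. Filled points were well above background and open ones were not, and the dotted lines mark the lowest level carrying that flag, -4.42 on the WRN-K577M and -4.73 on the control array. Among probes with filled points on both arrays, the lines fall to the left for Cdkn1a, Cdkn1c, Cdkn2a probe 1 and Cdkn2b, rise to the left for Cdkn1b, and are nearly flat for Cdkn2c and Cdkn2d.

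Cdkn1a encodes p21, the inhibitor that p53 induces after DNA damage. The array printed its bright probe, A_51_P363947, at 10 spots, so the measurement error of this gene is known best. Processed signals of the 10 spots ran from 1403 to 1529 with a median of 1462 on the WRN-K577M array, and from 2458 to 2710.0 with a median of 2585.7 on the control array. Every spot was dimmer on the WRN-K577M array than all 10 control spots, before and after scaling. The mean was 1463 ± 36.4 on the WRN-K577M and 2589.7 ± 83.5 on the control array (SD over 10 spots of 1 array each). After scaling, the levels were 2.80 in the WRN-K577M and 3.34 in the control heart, a log2 ratio of -0.54, or 1.45-fold lower. Between spots that ratio varied with an SD of 0.044 and ran from -0.61 to -0.46. The spots share their RNA sample, so this spread covers the array measurement and not the spread between hearts. Of all measured genes, 10.4% had a ratio at least as low. In RNA of a whole tissue, fewer cells of a type and less RNA per cell cannot be told apart.

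**Figure D2:**
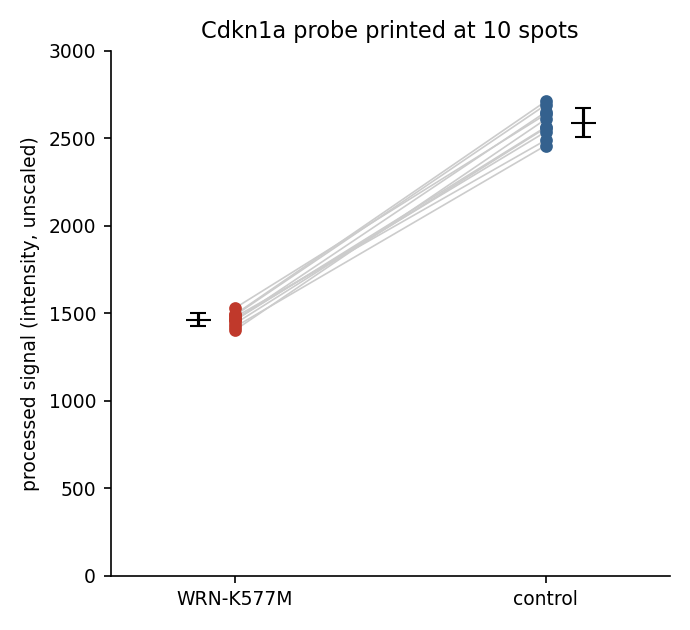
Unscaled processed signal (intensity) of the Cdkn1a probe printed at 10 spots, with the WRN-K577M array on the left and the control array on the right. Points are spots, grey lines join the same position on both arrays, and the bars are the mean and SD, 1463 ± 36.4 and 2589.7 ± 83.5. The groups of spots do not overlap.

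The other Cdkn1a probe, A_55_P1986282, is annotated to another RefSeq transcript of the gene and was dim. Its signal was 15.7 ± 2.63 in the WRN-K577M and 40.1 ± 4.50 in the control heart (the software's error of 1 spot). The levels were -3.74 and -2.67, a log2 ratio of -1.07, 2.09-fold lower, and it is the sole measured inhibitor probe past 2-fold, where 3.15% of named probes were that much lower. With normexp, a background correction that leaves a constant offset on each signal, its ratio was -0.062, while that of the bright probe was -0.57. Both Cdkn1a probes lay below 0, and they differed by 0.53. Among 3650 genes with several measured probes the median difference was 0.17, and 13.5% differed at least as much.

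RefSeq lists separate starts for Cdkn1a on chromosome 17, and the 250 bases before each are shown because the probes are annotated to different transcripts and p53 is this gene's best known activator (GRCm38.p6, plus strand). Capitals mark matches of the motifs searched on both strands in the windows of all genes, without overlaps among the matches shown. The p53 response element was searched as its 20-base consensus with at most 1 mismatch, and the others as the GC box GGGCGG, the forkhead motif GTAAACA, the cAMP response element TGACGTCA, TATAAA and the E-box CACGTG.
Cdkn1a at the lower coordinate, chr17:29090729-29090978: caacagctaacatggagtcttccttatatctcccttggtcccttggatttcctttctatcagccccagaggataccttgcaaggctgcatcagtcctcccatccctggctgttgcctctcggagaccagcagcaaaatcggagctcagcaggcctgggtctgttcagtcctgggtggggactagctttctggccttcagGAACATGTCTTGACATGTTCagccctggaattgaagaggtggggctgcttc
Cdkn1a at the higher coordinate, chr17:29093519-29093768: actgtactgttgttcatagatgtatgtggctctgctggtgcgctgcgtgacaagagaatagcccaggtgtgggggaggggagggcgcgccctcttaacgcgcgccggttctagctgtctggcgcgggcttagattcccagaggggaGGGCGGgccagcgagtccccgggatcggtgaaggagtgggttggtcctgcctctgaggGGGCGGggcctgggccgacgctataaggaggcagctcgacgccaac
The window at the lower coordinate holds a p53 response element, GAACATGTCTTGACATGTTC, at bases -51 to -32 from that start, and 0.0761% of 32851 windows hold one. The window at the higher coordinate holds 2 GC boxes, found at least once in 32.7% of windows. No table used here says which start gives the message that either probe reads.

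Cdkn1b encodes p27, which is abundant in cells that rest outside the cycle and whose loss in mice gives larger organs, the heart included. Its ratio was the highest of the 7. Its single probe had a signal of 1881 ± 188 in the WRN-K577M heart, against 1363 ± 136 in the control heart (software error). The levels were 3.17 in the WRN-K577M and 2.41 in the control heart, a log2 ratio of 0.75 with a software error of 0.20, or 1.68-fold higher. Cdkn1b was thus brighter on the array whose overall signal was lower. Of all measured genes, 4.03% had a ratio at least as high. Its ratio minus that of Cdkn1a was 1.29, which no scaling of a whole array by 1 factor can change.

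The window before the Cdkn1b start is shown as that of the 1 inhibitor gene past 1.5-fold. It lies on chromosome 6 (GRCm38.p6, plus strand) and holds 1 GC box in capitals and none of the other motifs.
Cdkn1b, chr6:134920151-134920400: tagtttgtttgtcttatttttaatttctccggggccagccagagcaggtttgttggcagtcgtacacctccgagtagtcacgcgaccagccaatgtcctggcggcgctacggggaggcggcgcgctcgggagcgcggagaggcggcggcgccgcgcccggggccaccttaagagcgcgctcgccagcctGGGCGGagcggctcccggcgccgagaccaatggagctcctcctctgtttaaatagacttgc
Its GC content was 64.4%, against a median of 52.4% over all windows.

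Cdkn1c encodes p57, an imprinted inhibitor that is active from the maternal copy and is best known from development. Its single probe had a signal of 620.4 ± 62.1 in the WRN-K577M heart, against 1065 ± 107 in the control heart (software error). The levels were 1.56 in the WRN-K577M and 2.06 in the control heart, a log2 ratio of -0.49, or 1.41-fold lower, with a software error of 0.20. Within the Cip/Kip family, 2 genes were thus lower and 1 was higher.

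**Figure D3:**
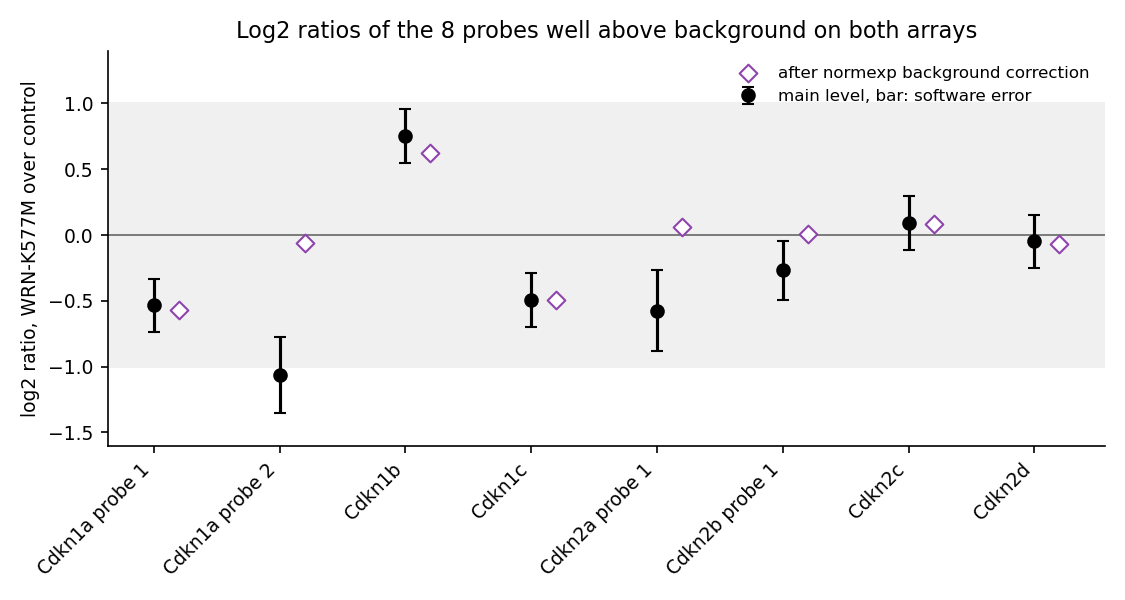
Log2 ratios, WRN-K577M over control, of the 8 inhibitor probes well above background on both arrays. Black points are the main level with bars of 1 software error, open diamonds the value after normexp background correction, and the grey band marks ratios within 2-fold. The dim probes Cdkn1a probe 2 (-1.07 and -0.062) and Cdkn2a probe 1 (-0.58 and 0.058) move most between both methods, while Cdkn1b stays above and Cdkn1c below 0.

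Cdkn2a encodes from separate first exons p16, an INK4 inhibitor, and ARF, which binds MDM2 and so protects p53. Both of its probes are annotated to the same RefSeq transcript, and no source used here says whether they read the p16 message, the ARF message or both. A_55_P2008437 had a signal of 15.3 ± 2.64 in the WRN-K577M heart, against 27.8 ± 3.48 in the control heart (software error). The median spot brightness before any subtraction was 55.0 in the WRN-K577M and 65.0 in the control heart, over a local background of 37.0 and 35.0, so both spots were close to their surroundings. The levels were -3.78 in the WRN-K577M and -3.21 in the control heart, a log2 ratio of -0.58 with a software error of 0.31, or 1.49-fold lower. After normexp the ratio was 0.058, on the other side of 0. A_55_P2008438 was on neither array well above background, with a signal of 2.58 ± 2.58 in the WRN-K577M and 2.26 ± 2.27 in the control heart. A gain of Cdkn2a message in the WRN-K577M heart was thus not seen by either probe above its error.

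Cdkn2b, next to Cdkn2a on chromosome 4, encodes p15, an INK4 inhibitor that TGF-beta induces in epithelial cells. Its brighter probe, A_55_P1988183, had a signal of 45.9 ± 5.11 in the WRN-K577M heart, against 67.5 ± 7.08 in the control heart (software error). The levels were -2.19 in the WRN-K577M and -1.92 in the control heart, a log2 ratio of -0.27 with a software error of 0.22, or 1.21-fold lower. After normexp it was 0.0062. The other probe, A_55_P1979526, did not pass as well above background in WRN-K577M, with a signal of 5.98 ± 2.68, and did so in the control heart with 13.0 ± 2.79, at least 1.09-fold lower. That bound sets the control level against the lowest level that passed on the WRN-K577M array. It leaves out the software error, 21.4% of the control signal. After normexp the ratio of A_55_P1979526 was 0.15, above 0. Repeated probes with a mean signal under 100 had ratios that varied between spots with a pooled SD of 0.22 (63 probes). The ratio of Cdkn2b was near that SD and that of Cdkn2a was larger. The Cdkn2a probe, with signals of 15.3 in the WRN-K577M and 27.8 in the control heart, is among the dimmer spots of that class. Whether the SD holds for spots that dim was not tested.

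The windows before the starts of Cdkn2a and Cdkn2b are shown because these neighbours were both at the dim end of the array (GRCm38.p6, minus strand). The Cdkn2a start at the higher coordinate is that of ARF, and the other is that of p16.
Cdkn2a, ARF start, chr4:89294620-89294869: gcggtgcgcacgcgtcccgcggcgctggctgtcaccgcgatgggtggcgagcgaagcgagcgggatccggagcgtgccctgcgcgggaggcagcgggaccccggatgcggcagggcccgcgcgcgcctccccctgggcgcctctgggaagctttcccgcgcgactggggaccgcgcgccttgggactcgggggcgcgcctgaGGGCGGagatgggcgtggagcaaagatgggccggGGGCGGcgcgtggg
Cdkn2a, p16 start, chr4:89282193-89282442: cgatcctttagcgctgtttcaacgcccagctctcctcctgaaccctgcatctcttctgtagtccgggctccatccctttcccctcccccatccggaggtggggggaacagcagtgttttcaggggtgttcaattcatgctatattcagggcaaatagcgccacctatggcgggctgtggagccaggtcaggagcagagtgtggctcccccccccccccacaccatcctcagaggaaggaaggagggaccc
Cdkn2b, chr4:89311033-89311282: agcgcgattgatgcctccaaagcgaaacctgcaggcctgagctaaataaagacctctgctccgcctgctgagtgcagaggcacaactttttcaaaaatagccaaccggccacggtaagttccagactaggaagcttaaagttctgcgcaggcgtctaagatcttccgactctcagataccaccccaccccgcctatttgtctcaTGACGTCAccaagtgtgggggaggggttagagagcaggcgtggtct
The ARF window holds 2 GC boxes and the p16 window none of the motifs searched. The Cdkn2b window holds a cAMP response element, TGACGTCA, at bases -46 to -39, which 1.55% of all windows hold. The GC content was 78.4% for ARF, 60.0% for p16 and 53.6% for Cdkn2b.

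Cdkn2c and Cdkn2d, which encode p18 and p19 of the INK4 family, were near equal. Cdkn2c had a signal of 162 ± 16.3 in the WRN-K577M heart, against 185 ± 18.6 in the control heart (software error), levels of -0.38 and -0.47 and a log2 ratio of 0.093. Cdkn2d had a signal of 1299 ± 130 in the WRN-K577M heart, against 1641 ± 164 in the control heart, levels of 2.63 and 2.68 and a log2 ratio of -0.049. Both ratios were smaller than their software error of 0.21 and 0.20.

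**Figure D4:**
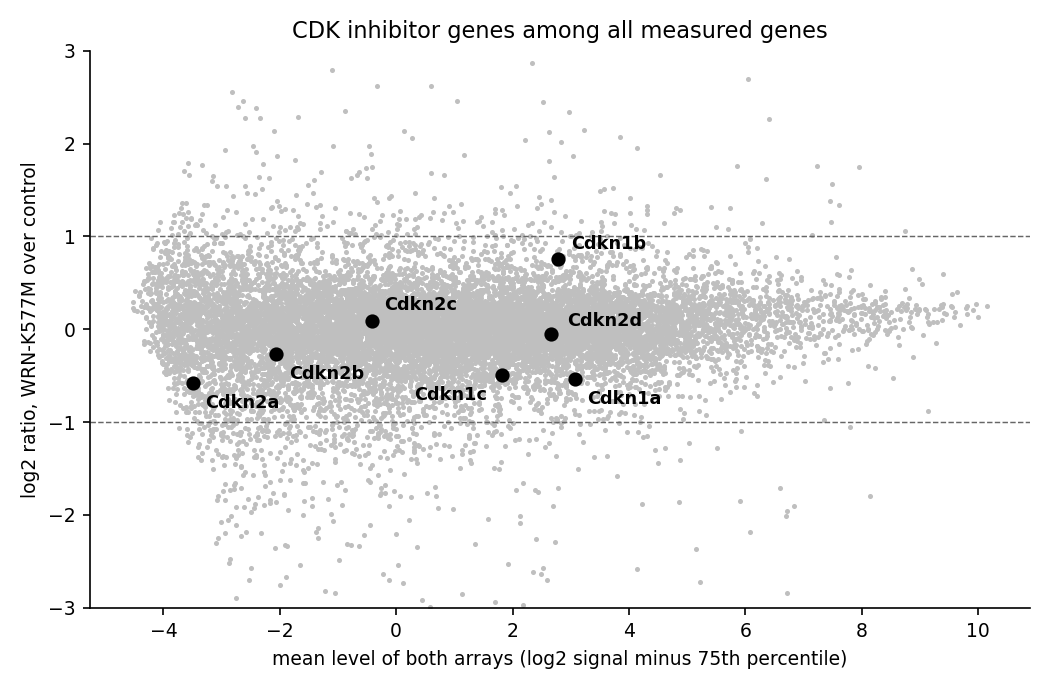
Log2 ratio, WRN-K577M over control, against the mean level of both arrays (log2 signal minus the 75th percentile), with all 14003 measured genes in grey and the 7 inhibitor genes in black. Dashed lines mark 2-fold, and 22 genes with a ratio beyond 3 in either direction are outside the frame. All 7 lie within 2-fold, from Cdkn2a at -0.58 to Cdkn1b at 0.75.

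Among the kinases and cyclins that the inhibitors act on, ratios were below 0 for 10 of 11 measured genes (median -0.52), where 52.4% of all measured genes lay above 0. None of the 11 was 2-fold different, where 5.39% of all measured genes were. The 4 with the largest ratios were Ccnb2, a mitotic cyclin (-0.96), Ccne1, the cyclin E that activates CDK2 (-0.78), Ccnd3, a D-type cyclin (-0.62), and Ccnh, part of the CDK-activating kinase (-0.59). The levels of Ccnd3 were 3.71 in the WRN-K577M and 4.33 in the control heart, and its ratio lay between -0.69 and -0.62 under all settings. Over the settings Ccnb2 reached -1.03 at its lowest, past 2-fold, but after normexp it had a ratio of -0.16, and Ccne1 had -0.30 and Ccnh -0.34. The list's median was -0.15 after normexp and -0.067 over 7 genes with a stricter filter on dim probes. Cdk4, the main partner of the INK4 proteins, was near equal with levels of 2.99 in the WRN-K577M and 3.05 in the control heart. Cdk6 was not well above background in either. Cdk1, a mitotic kinase, was well above background in WRN-K577M alone, at least 1.99-fold higher. Without a filter on dim probes another Cdk1 probe was taken, with a ratio of -0.51. Ccnb1 was well above background in the control heart alone, at least 1.11-fold lower in WRN-K577M. Atrial, lung, erythroid, leukocyte, fibroblast and most adipocyte markers had ratios below 0 in the same heart as these cyclins, with the values given above, and their part was not tested.

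Of 13 pocket protein and E2F genes, 2 passed 2-fold downward and none upward (median -0.072). E2f2, an activating E2F, had levels of -3.23 in the WRN-K577M and -0.57 in the control heart, a ratio of -2.66, and E2f1 had -3.74 and -2.72, a ratio of -1.03. After normexp E2f2 stayed past 2-fold (-1.31) and E2f1 did not (-0.18). The erythroid genes Hba-a1, Hbb-bt and Alas2 were lower in the same heart by log2 ratios of -1.80, -2.84 and -2.97, and their part in the E2f2 ratio was not tested. Rbl2, the pocket protein p130 of resting cells, had a ratio of 0.58, Tfdp1, a partner of E2F, of -0.41, and Rb1 one of 0.022.

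Genes that E2F drives in S and M phase had a median of 0.18 over 18 measured genes, 12 of them above 0, with 1 past 2-fold upward and 1 downward. Mki67, the antigen of dividing cells, had levels of -0.40 in the WRN-K577M and -1.71 in the control heart, a ratio of 1.31. Ube2c, the ubiquitin carrier of the mitotic ligase, had -3.56 and -1.65, a ratio of -1.92. Birc5 and Rrm2 had ratios of -0.98 and -0.73. After normexp none of the 18 was 2-fold different, with Mki67 at 0.95 and Ube2c at -0.52. Under 3 other scalings 2 genes were 2-fold lower, Ube2c and Birc5. The list has 22 genes, and 4 of them passed the background flag on neither array.

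**Figure D5:**
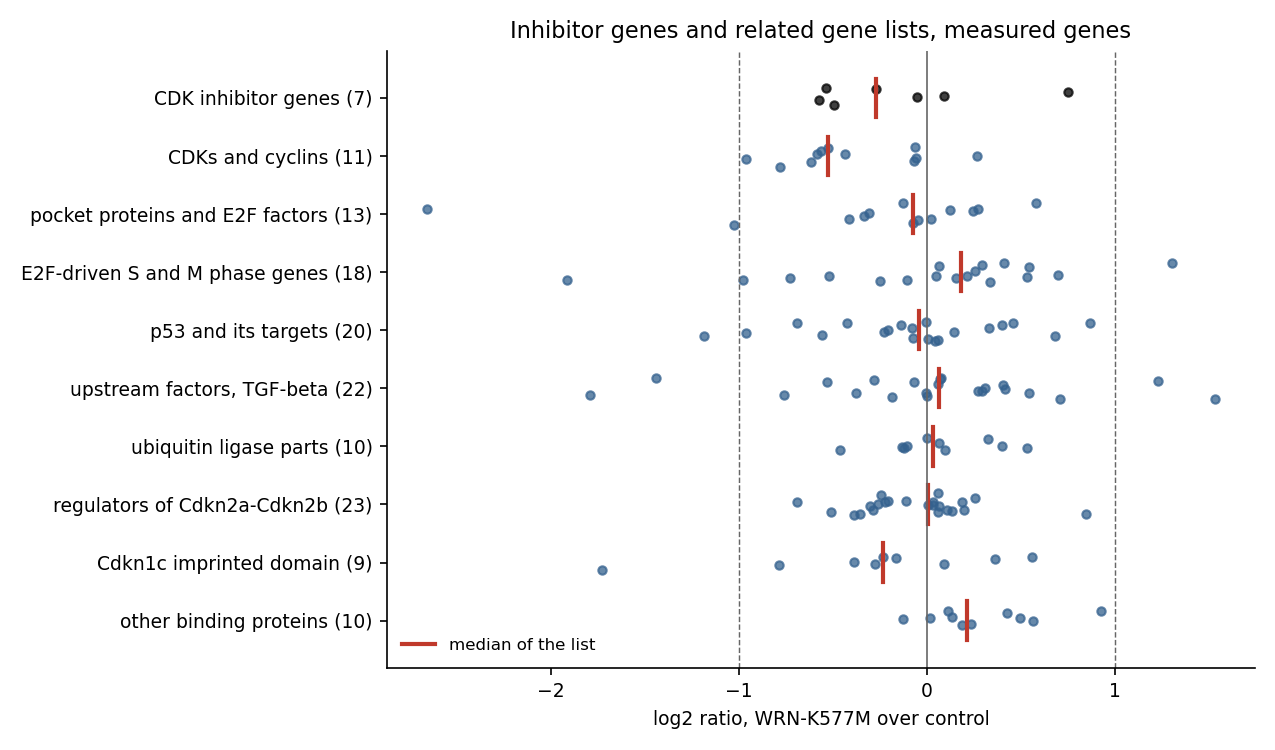
Log2 ratios, WRN-K577M over control, of the measured inhibitor genes (top row) and of the measured genes of 9 related lists, with the number measured in brackets. Points are genes, red bars are medians, and dashed lines mark 2-fold. The inhibitor genes have a median of -0.27, and the list medians run from -0.52 for the CDKs and cyclins to 0.21 for other binding proteins.

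p53 is the main activator of Cdkn1a. Of 20 measured genes of p53, its regulators and its other targets, 9 lay above 0 and 11 below (median -0.039), and 1 was 2-fold lower. That 1 was Plk3, a stress kinase, with -1.18 (-0.87 after normexp, which left none 2-fold lower). Btg2, an antiproliferative p53 target and immediate-early gene, had -0.96, with levels of 3.15 in the WRN-K577M and 4.11 in the control heart, and reached -1.02 under other scalings, which made the count 2. Fas, a death receptor, had 0.87 and Phlda3, an inhibitor of AKT, -0.69. Pmaip1, a p53 target outside these 20, was well above background in the control heart alone, at least 2.64-fold lower in WRN-K577M. Without a filter on dim probes its ratio was -1.59. The p53 gene Trp53 had -0.079 (0.17 after normexp) and its ligase Mdm2 -0.21. Ratios of p53 targets lay on both sides of 0, and their relation to the lower value of Cdkn1a was not tested.

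Of 22 transcription factors and TGF-beta genes that act upstream of the Cip/Kip genes and Cdkn2b, 2 passed 2-fold upward and 2 downward (median 0.066). Tgfb2, a TGF-beta ligand, had levels of 2.56 in the WRN-K577M and 1.03 in the control heart, a ratio of 1.54. Myc, a repressor of Cdkn1a and Cdkn2b, had a ratio of 1.23 (0.89 after normexp). Egr1, an immediate-early factor, had -1.44, and Foxo6 -1.79.

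The p27 and p21 proteins are removed by ubiquitin ligases. Of 10 measured ligase parts none was 2-fold different, with a median of 0.035. Skp2, the subunit that recognises p27, had 0.53 and was near the background, Cks1b, its cofactor, had -0.46, Ddb1 0.40 and Cul4b 0.33. RNA levels do not measure these proteins or their turnover.

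Polycomb proteins and other factors repress the Cdkn2a-Cdkn2b locus or activate it. Of 23 measured genes none was 2-fold different, with a median of 0.0083 and 12 above 0. Ezh1 and Ezh2, alternative methyltransferase subunits of a Polycomb complex, went opposite ways. Ezh1 had levels of 4.91 in the WRN-K577M and 4.06 in the control heart, a ratio of 0.85, and Ezh2 had -1.86 and -1.16, a ratio of -0.69. After normexp Ezh1 had 0.76 and Ezh2 -0.31. Id2 (-0.51) and Id1 (-0.39) were lower. Cbx7, measured above background in WRN-K577M alone, was at least 1.56-fold higher.

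In the imprinted domain of Cdkn1c, counted here with the neighbouring genes Igf2 and H19, 3 of 9 measured genes lay above 0 (median -0.23). Of these 9, 1 was 2-fold lower. That 1 was the potassium channel gene Kcnq1, with levels of 1.20 in the WRN-K577M and 2.93 in the control heart, a ratio of -1.73. Kcnq1ot1, the long non-coding RNA of the domain that silences Cdkn1c on the paternal copy, had levels of 0.21 and -0.35, a ratio of 0.56. Igf2 had -0.79 (-0.28 after normexp) and Slc22a18 -0.39. Of 10 other proteins that bind CDKs or their inhibitors, 9 lay above 0 (median 0.21), and none was 2-fold different. With the mean of a gene's probes 1 was, Cdk5rap1 at 1.48. The ratios were led by Cdk5rap1 (0.93), Cdk5rap3 (0.57), Ccng2, a cyclin of resting cells (0.50), and Cdk5rap2 (0.43).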

How the data were processed

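Cy3-labelled total RNA of the WRN-K577M and of the control heart went on 1 array each. The headers give them a common slide and scan, so neither separates the groups. Agilent Feature Extraction 11.5.1.1 made the intensity values of the deposited scanner files, as the submitters' processing notes name it. Their processed signal is, per the file headers, background-subtracted and detrended without scaling across arrays. Other columns of these files hold the software's error, the median spot and background signals, and 0 or 1 flags. The deposited series matrix holds the same processed intensity times 4.86 (WRN-K577M) or 4.12 (control).

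Control spots and 257 outlier spots were left out. The log2 processed signal minus the 75th percentile was the level, averaged over spots of a probe. Accessions without versions were matched to RefSeq symbols (GRCm38.p6), which named 50.9% of probes. The array design is on mm9, so the table gave names and gene order. A gene took its brightest probe well above background on both arrays. A software error of a ratio combines the errors of both signals, which were 10.0% of the signal for the bright probes of Cdkn1a, Cdkn1b, Cdkn1c and Cdkn2d. The number of arrays limits the precision. Sequences are from RefSeq (GRCm38.p6), where 6 of 7 members matched.

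The members, lists and rules were chosen with earlier results of these data known. Named are all members, in each list up to 4 genes furthest from 0, neighbours of the members, Wrn and cell type markers. Others (Cdk1, Cdk4, Cdk6, Ccnb1, Rb1, Trp53, Mdm2, Pmaip1, Cbx7) were chosen after their values were seen. Alternatives were normexp (offset 50, on the median spot signal), quantile and cyclic loess normalization, other scaling points, the deposited matrix, outliers kept, the mean of a gene's probes, no filter and a stricter filter (5 times the lowest signal well above background). Python 3.11.15, numpy 2.4.6, pandas 2.3.3, R 4.3.3, limma 3.58.1 and matplotlib 3.10.9 were used. The calculation of gene values was checked on simulated data, with the same spot noise for all probes and the control array's background flags on both arrays. That check does not cover the larger noise of dim spots or differences between hearts.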

Additional observations from a re-analysis of the deposited data

How the results depend on the processing

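No paired analysis was possible because each group has 1 array. A ratio is given as moved where it shifted by more than 0.12, the pooled SD between repeated spots. Cdkn1a, Cdkn1b, Cdkn1c, Cdkn2c and Cdkn2d kept their side of 0 under all 10 alternatives. Cdkn2c ran from 0.042 to 0.10 and Cdkn2d from -0.10 to -0.049, shifts below that SD. The mean of its probes gave Cdkn1a a ratio of -0.80 and made Cdkn1b minus Cdkn1a 1.55. After normexp the ratios were 0.62 for Cdkn1b, 0.058 for Cdkn2a and 0.0062 for Cdkn2b, and the median of the members was 0.0062. Under the stricter filter, which leaves 5 members, that median was -0.049. No member was 2-fold different under any alternative, where 0.821% (normexp) to 5.80% (no filter) of all genes were higher and 1.41% to 5.05% lower. In each, 1 member was past 1.5-fold higher, where 3.67% (normexp) to 11.9% (no filter) of all genes were. The number at least 1.5-fold lower was 1 with quantile normalization (9.35% of all genes), the median of all probes (10.2%) or the mean of a gene's probes (8.93%). It was 2 with cyclic loess (10.4%) or the deposited matrix (10.4%). These counts were added after seeing the data. The cause of these shifts was not tested, and the normexp setting changed the input signal as well as the background correction. Signal over background limits Cdkn2a, Cdkn2b and the dim Cdkn1a probe. Without a filter on dim probes the median of all genes was 0.12.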

Other observations

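The nearest named genes on each side of the members gave these values. Beside Cdkn1a (-0.54), the splicing factor gene Srsf3 had levels of 3.57 in the WRN-K577M and 3.02 in the control heart, a log2 ratio of 0.56. Cpne5, on the other side, had levels of -0.96 and 0.42, a ratio of -1.38. Beside Cdkn1b (0.75), Gpr19 had a ratio of 0.095. Lockd, a long non-coding RNA gene just downstream of Cdkn1b, had levels of -3.93 in the WRN-K577M and -3.10 in the control heart, a ratio of -0.83 that was -0.048 after normexp. Mtap, beside Cdkn2a, had -0.15, and the neighbours Cdkn2a and Cdkn2b had -0.58 and -0.27, so all 3 lay below 0. After normexp Cdkn2a (0.058) and Cdkn2b (0.0062) lay above 0, and Mtap had -0.14. Beside Cdkn1c (-0.49), Kcnq1ot1 had 0.56 and Slc22a18 -0.39. Beside Cdkn2c, Rnf11 had 0.0066 and Faf1 0.23, and beside Cdkn2d, Kri1 had 0.18. Dmrta1, beside Cdkn2b, and Ap1m2, beside Cdkn2d, were not well above background in either heart.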
